A study of Mus musculus with 20 samples.

Results

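The respiratory chain and the ATP synthase of the inner mitochondrial membrane were followed here through the genes that encode their subunits. Members were the genes whose symbols begin with Nduf followed by a, b, c, s or v, are Sdha, Sdhb, Sdhc or Sdhd, or begin with Uqcr, Cox4 to Cox8, or Atp5. The rule matched 90 of the 18193 genes that had a probe set for a single gene, and 89 of them passed the filter on low signals, of 15762 genes tested. Ndufb4, an accessory subunit of complex I, was the member that did not pass. By role the tested members were 33 complex I genes, 4 complex II genes, 8 complex III genes, 18 complex IV genes, 17 complex V genes and 9 assembly or accessory factors that the symbol rule also takes in.

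The study measured total testis RNA of 8-week-old mice of the inbred strains AKR/N and C57BL/6 on Affymetrix Mouse 430 2.0 arrays. In each strain, testes were taken 8, 10, 12 and 24 h after a heat shock of 43 °C for 15 min, and control testes had no heat shock. Each of the 10 groups had 2 arrays, 20 in all, and neither strain carried an engineered allele. Whether both arrays of a group hold RNA of separate mice is not in the labels, so each p-value reflects how far the arrays of a group differed, perhaps for technical reasons alone. The controls carry no time of their own, so heat and the time of sampling cannot be told apart.

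Complexes I to IV pass electrons from NADH and succinate to oxygen. Of these, complexes I, III and IV pump protons, and complex V uses the proton gradient to make ATP. Most subunits are encoded in the nucleus, and a few core subunits are encoded in mitochondrial DNA. Complex IV, cytochrome c oxidase, has subunit isoforms that differ between tissues. Male germ cells express the testis isoforms Cox6b2, Cox7b2 and Cox8c beside or in place of the widely expressed Cox6b1, Cox7b and Cox8a, and germ cell mitochondria change shape and composition as spermatocytes become spermatids. Ndufa4, once counted with complex I, is a complex IV subunit, and Ndufa4l2 is its paralogue, known from hypoxic cells.

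The deposited values are linear probe-set signals, and every array had the same trimmed mean of 125.001. Changes are differences of group means of log2(signal + 16), heated minus control of the same strain, and limma's adjusted p under 0.05 over all 15762 genes was the threshold for a call. Signals of different genes depend on their probes, so levels are compared within a gene. Median signals per array ran from 24.9 to 34.9. The ratio of 3′ to 5′ actin probes, a measure of RNA integrity, lay between 1.87 and 3.57 and was highest on C57BL/6 12 h replicate 2. It moved with the 24 h groups in opposite directions, at 2.14 and 2.17 in AKR/N at 24 h, against 2.92 and 2.39 in AKR/N controls, and 2.84 and 2.58 in C57BL/6 at 24 h, against 2.14 and 2.46 in C57BL/6 controls. Its part in the changes below was not tested. The testis label was checked on spermatid genes, which were well above the filter of 17.5: the 6 elongating spermatid genes summed to 45368 to 46944 in AKR/N controls and 42600 to 45320 in C57BL/6 controls. Markers of fat, another tissue around the testis, were not absent, as 2 white fat genes summed to 281 to 345 in AKR/N controls and 407 to 756 in C57BL/6 controls.

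Calls among the subunit genes began at 10 h, and more fell than rose except in AKR/N at 12 h. At 8 h limma called 0 of 89 members in either strain, with 6 in AKR/N and 7 in C57BL/6 at an unadjusted p under 0.05. In AKR/N at 8 h, 0.0254% of all genes rose and 0.0127% fell, and in C57BL/6 0.0888% rose and 0% fell. At 10 h, 4 members fell and 0 rose in AKR/N (1.19% of all genes fell and 1.44% rose). At the same time 23 fell and 1 rose in C57BL/6 (5.19% of all genes fell and 6% rose). At 12 h, 3 fell and 3 rose in AKR/N (3.2% of all genes fell and 3.8% rose), and 21 fell and 3 rose in C57BL/6 (9.38% of all genes fell and 9.71% rose). The 24 h groups had the most calls in both strains. There, 22 fell and 6 rose in AKR/N (11.1% of all genes fell and 12.3% rose), and 43 fell and 9 rose in C57BL/6 (16.6% of all genes fell and 21.4% rose).

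The members' typical change was small. Their median log2 change at 24 h was -0.14 in AKR/N, where the median of all genes was -0.01, and -0.34 in C57BL/6, where that of all genes was 0.08. At 10 h the medians were -0.26 in AKR/N and -0.26 in C57BL/6, so the low number called in AKR/N at 10 h did not go with a smaller median. At 12 h they were -0.11 in AKR/N and -0.24 in C57BL/6. The median was thus lowest at 10 h in AKR/N and at 24 h in C57BL/6. All 23 members that fell in C57BL/6 at 10 h also fell at 24 h, and 16 of them fell at 12 h, although these comparisons share the same 2 control arrays. The same overlap over all genes is not given here. Set against the mean of the 8, 10 and 12 h groups, which leaves the controls out, 11 members fell further and 3 rose at 24 h in AKR/N (11% of all genes fell and 14% rose), and 27 fell and 5 rose in C57BL/6 (12.1% of all genes fell and 16.6% rose). The counts at 10 h also depended on the processing, ranging from 0 (fit within the strain) to 27 (trended prior) in AKR/N, and from 8 (arrays centred on their medians) to 38 (trended prior) in C57BL/6. They depended on single arrays too. Without AKR/N 24 h replicate 2, 9 members were called at 24 h in AKR/N, and 1 against the mean of the earlier heated groups. Without C57BL/6 control replicate 1, 3 members were called at 10 h, 10 at 12 h and 34 at 24 h in C57BL/6, and without C57BL/6 24 h replicate 1, 8 were called against the mean of the earlier heated groups.

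**Figure D1:**
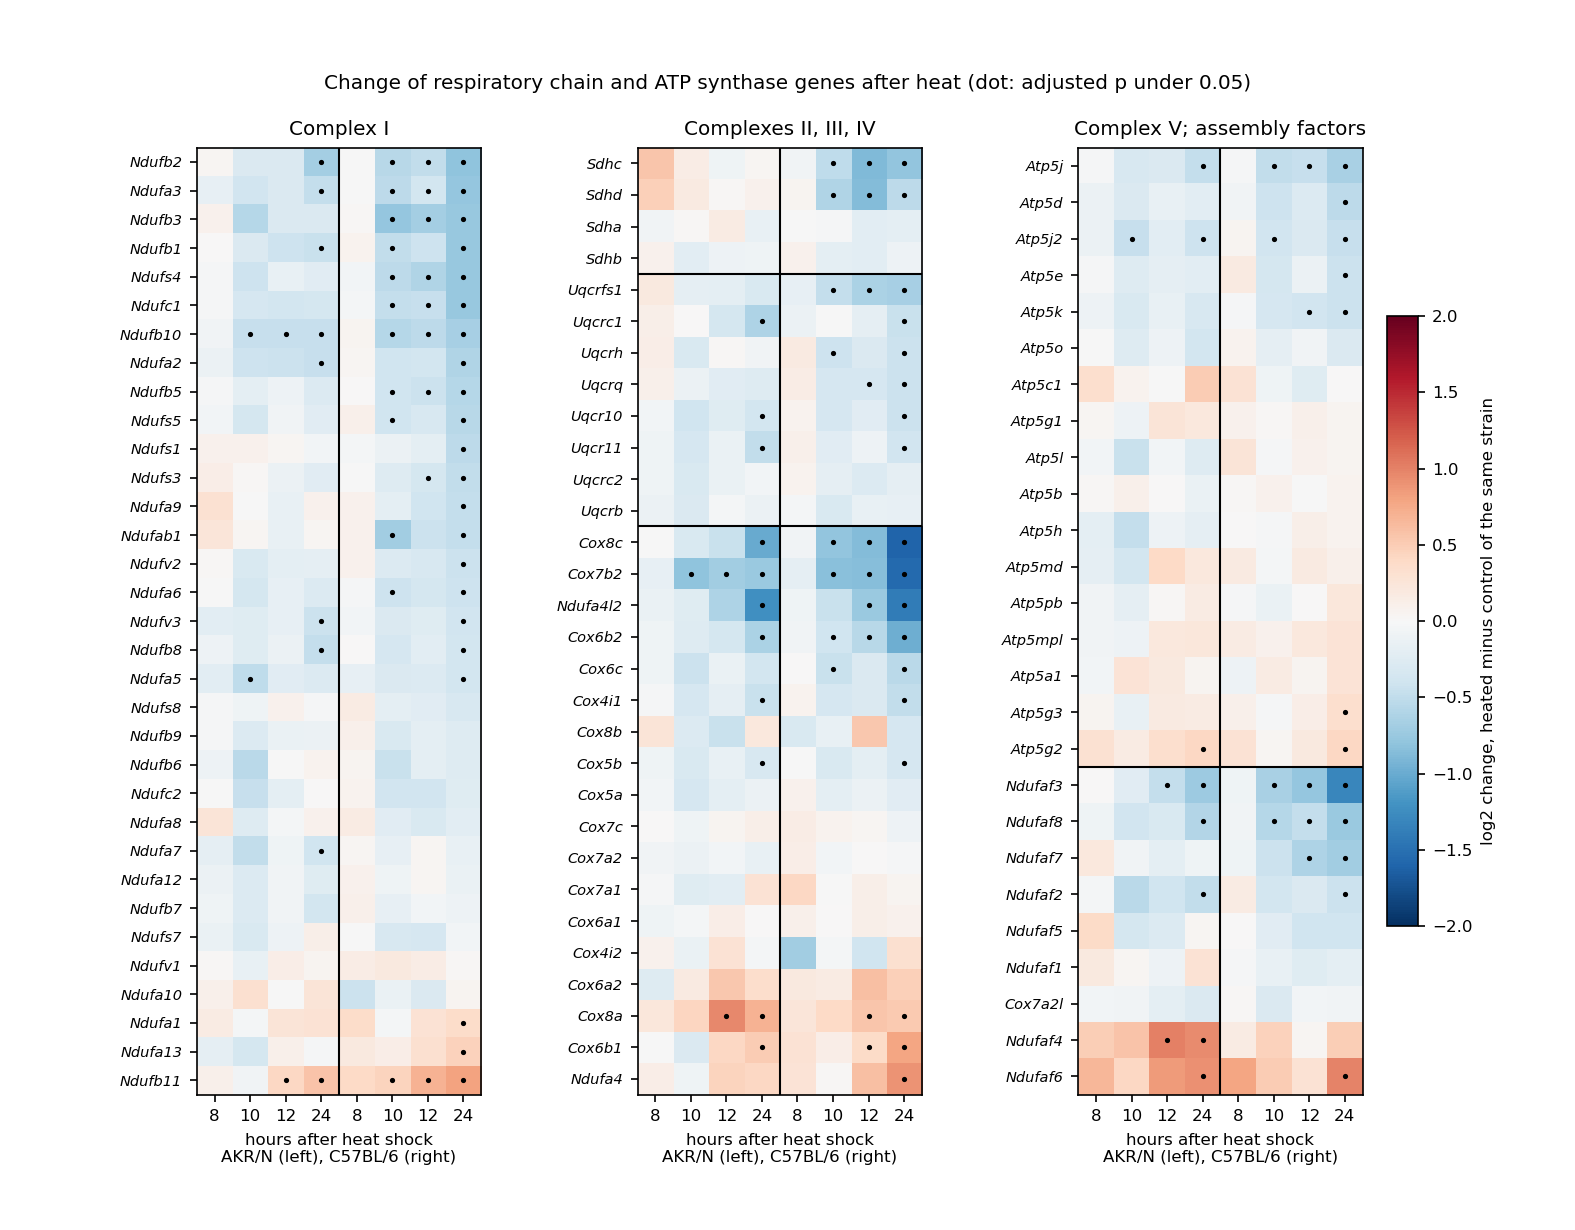
Log2 change of each of the 89 tested genes (rows, ordered within each class by the C57BL/6 change at 24 h) at 8, 10, 12 and 24 h after heat (columns), AKR/N left and C57BL/6 right in each panel, heated minus control of the same strain, with a colour scale from -2 to 2. Dots mark an adjusted p under 0.05. Blue, a fall, fills most of complexes I and III in C57BL/6 at 24 h, while Cox8c, Cox7b2 and Ndufa4l2 are the darkest rows of complex IV and Cox8a, Cox6b1 and Ndufa4 stand at its other end.

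Complex IV showed the widest spread, with its testis isoforms falling and Cox6b1 and Cox8a rising in the same arrays. At 24 h, 6 of its 18 genes (33.3%, against 11.1% of all genes) fell and 2 (11.1%, against 12.3%) rose in AKR/N, and 7 (38.9%, against 16.6%) fell and 3 (16.7%, against 21.4%) rose in C57BL/6. Cox8c, the testis isoform of subunit 8, had signals of 1936 and 1706 in AKR/N at 24 h, against 3714 and 3661 in AKR/N controls. In C57BL/6 it had 1169 and 1073 at 24 h, against 3341 and 3561 in the controls. Heated arrays lay below the controls in both strains without overlap, with log2 changes of -1.01 (SE 0.13, adjusted p = 0.000342) in AKR/N and -1.61 (SE 0.13, adjusted p = 3.42e-06) in C57BL/6. Through the time course Cox8c read 3341 and 3561 in C57BL/6 controls, 3365 and 3202 at 8 h, 1910.3 and 2079.7 at 10 h and 1873 and 1902 at 12 h, so it was near the controls at 8 h and low from 10 h on. A second, dimmer Cox8c probe set with a mean signal of 47.2 changed by -0.53 in AKR/N and 0.34 in C57BL/6 at 24 h, and averaging both probe sets gave -0.64 in C57BL/6.

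Cox7b2, the testis paralogue of subunit 7b, read 1879 and 1709.9 in AKR/N at 24 h, against 2962 and 3064 in AKR/N controls, and 1039 and 1089 in C57BL/6 at 24 h, against 3273 and 3045 in C57BL/6 controls. The heated arrays were lower in both strains, and those of C57BL/6 were the lowest of all. The log2 change was -0.74 (SE 0.13, adjusted p = 0.00163) in AKR/N and -1.55 (SE 0.13, adjusted p = 4e-06) in C57BL/6. Cox7b2 was called in AKR/N already at 10 h, at -0.81, and at 12 h, at -0.70, but the 10 h call was lost without AKR/N 10 h replicate 1 (adjusted p = 0.0796) or AKR/N control replicate 1 (0.0608), and the 12 h call without AKR/N 12 h replicate 1 (0.0863). Cox6b2, the testis isoform of subunit 6b, read 3469 and 3288 in AKR/N at 24 h, against 5243 and 5239.7 in AKR/N controls, and 2558 and 2520.5 in C57BL/6 at 24 h, against 4959 and 5106 in C57BL/6 controls. It fell in both strains, with log2 changes of -0.63 (SE 0.11, adjusted p = 0.00176) in AKR/N and -0.98 (SE 0.11, adjusted p = 2.32e-05) in C57BL/6. Ndufa4l2 read 169 and 102 in AKR/N at 24 h, against 338 and 324 in AKR/N controls, and 127 and 85.4 in C57BL/6 at 24 h, against 305 and 299 in C57BL/6 controls, and it fell, with log2 changes of -1.23 (SE 0.22, adjusted p = 0.00192) in AKR/N and -1.40 (SE 0.22, adjusted p = 0.000232) in C57BL/6. The 2 heated replicates of Ndufa4l2 lay further apart than those of Cox8c, Cox7b2 and Cox6b2, though still below the controls.

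**Figure D2:**
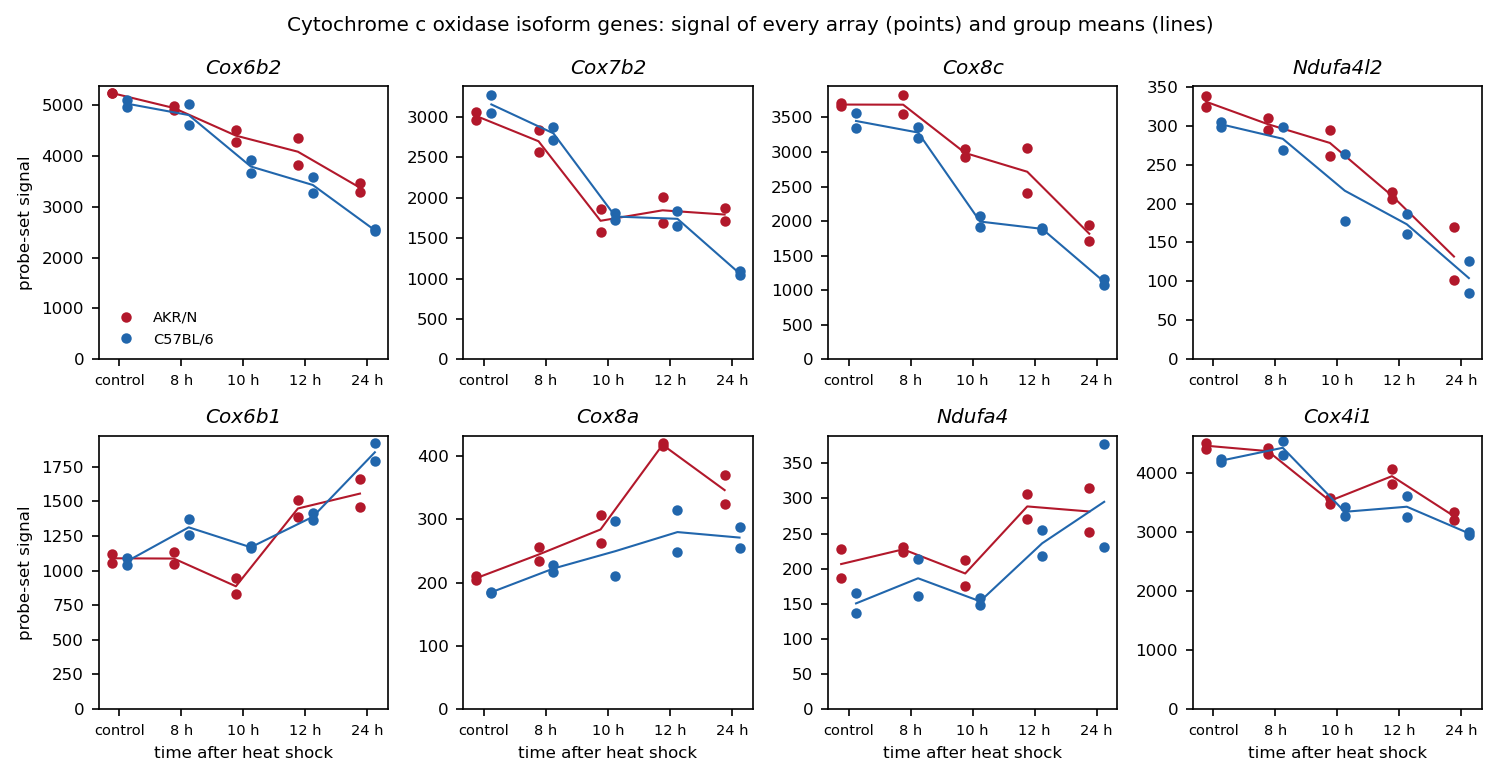
Probe-set signal (linear, arbitrary units) of 8 complex IV genes on every array (points; AKR/N red, C57BL/6 blue) in controls and at 8, 10, 12 and 24 h after heat, with lines through group means of log2(signal + 16) turned back to signal. The upper row (Cox6b2, Cox7b2, Cox8c, Ndufa4l2) falls after 8 h, Cox6b1, Cox8a and Ndufa4 in the lower row stand higher at 24 h than in the controls, though Ndufa4 in AKR/N did not pass the test, and Cox4i1 falls less steeply than the upper row.

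Cox6b1 and Cox8a, common counterparts of Cox6b2 and Cox8c, rose in both strains, and Cox7b, the common counterpart of Cox7b2, was not analysed here. Cox6b1 read 1455 and 1662 in AKR/N at 24 h, against 1121 and 1056 in AKR/N controls, and 1917 and 1791 in C57BL/6 at 24 h, against 1088 and 1043 in C57BL/6 controls. All heated arrays exceeded the controls of their strain, with a log2 change of 0.51 (SE 0.12, adjusted p = 0.00823) in AKR/N and 0.79 (SE 0.12, adjusted p = 0.000177) in C57BL/6, and a second Cox6b1 probe set changed by 0.62 in AKR/N and 0.66 in C57BL/6. Cox8a read 370.2 and 324 in AKR/N at 24 h, against 210.4 and 204 in AKR/N controls, and 288 and 255 in C57BL/6 at 24 h, against 184 and 186 in C57BL/6 controls. It rose by 0.70 (SE 0.16, adjusted p = 0.00779) in AKR/N and by 0.52 (SE 0.16, adjusted p = 0.0204) in C57BL/6 on the log2 scale, again with no overlap between heated and control arrays. Ndufa4 read 252 and 314 in AKR/N at 24 h, against 228 and 187 in AKR/N controls, and 377 and 230.3 in C57BL/6 at 24 h, against 166 and 136 in C57BL/6 controls. It rose in C57BL/6, by 0.90 (SE 0.21, adjusted p = 0.00414), and its AKR/N change of 0.42 (SE 0.21, adjusted p = 0.17) did not pass the test. Several of these calls rested on single arrays. The call of Cox8a was lost in AKR/N without 24 h replicate 1 (adjusted p = 0.053) and in C57BL/6 without 24 h replicate 1 (0.132) or either control (0.0811 and 0.0779), that of Ndufa4 in C57BL/6 without 24 h replicate 1 (0.0683), and that of Cox6b1 in AKR/N without 24 h replicate 2 (0.0961) or control replicate 2 (0.0509). With each array centred on its median the Cox8a rise in C57BL/6 was 0.40 (adjusted p = 0.112).

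Among the other common complex IV subunits, Cox4i1 fell in both strains. Cox4i1, the common isoform of the regulatory subunit 4, read 3340.2 and 3212 in AKR/N at 24 h, against 4423 and 4521 in AKR/N controls, and 3014 and 2953 in C57BL/6 at 24 h, against 4192 and 4241 in C57BL/6 controls, and fell, at -0.45 in AKR/N and -0.50 in C57BL/6 on the log2 scale. The AKR/N call of Cox4i1 was lost without 24 h replicate 2 (adjusted p = 0.0689). Cox6c and Cox5b, subunits without a testis form among the members, were singled out after their values were seen. Cox6c changed by -0.36 (SE 0.13, adjusted p = 0.0544) in AKR/N, not called, and -0.54 (SE 0.13, adjusted p = 0.00427) in C57BL/6, and Cox5b by -0.31 (SE 0.10, adjusted p = 0.0447) in AKR/N and -0.34 (SE 0.10, adjusted p = 0.0213) in C57BL/6. The Cox5b calls were lost without any 1 of the 4 arrays compared (highest 0.24 in AKR/N and 0.104 in C57BL/6), and without suffixed probe sets Cox5b was at 0.14 in AKR/N and 0.10 in C57BL/6, not called. Cox6a1 and Cox7a2, the common isoforms of subunits 6a and 7a, were not called in either strain, with changes of 0.01 and -0.16 in AKR/N and 0.09 and -0.03 in C57BL/6. The isoforms of heart, skeletal muscle and lung, Cox6a2, Cox7a1, Cox8b and Cox4i2, were dim on every array. Cox8b had signals of 20.2 and 15 in AKR/N at 24 h, against 5.47 and 22.6 in AKR/N controls, and Cox4i2 had 19.2 and 34.8 in C57BL/6 at 24 h, against 17.6 and 18.1 in C57BL/6 controls. None of these 4 was called by limma in either strain at any time, and none had an unadjusted p under 0.05 at 24 h.

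Log2 ratios of 2 paralogues within each array put these values side by side. The ratios were formed after the genes' own changes were seen, so they are given as a description with no test. The log2 ratio of Cox6b2 to Cox6b1 was 1.24 and 0.98 in AKR/N at 24 h, against 2.21 and 2.29 in AKR/N controls, and 0.41 and 0.49 in C57BL/6 at 24 h, against 2.17 and 2.27 in C57BL/6 controls. That of Cox8c to Cox8a was 2.34 and 2.34 in AKR/N at 24 h, against 4.04 and 4.06 in AKR/N controls, and 1.96 and 2.01 in C57BL/6 at 24 h, against 4.07 and 4.15 in C57BL/6 controls. For Ndufa4l2 to Ndufa4 it was -0.53 and -1.48 in AKR/N at 24 h, against 0.54 and 0.74 in AKR/N controls, and -1.46 and -1.28 in C57BL/6 at 24 h, against 0.82 and 1.05 in C57BL/6 controls. Each of these 3 ratios was lower on both 24 h arrays than on both control arrays in each strain. The Cox8c ratio changed by -2.13 in C57BL/6, or by -1.08 when all probe sets of each gene were averaged. The isoforms of other tissues had ratio changes of both signs at 24 h, which were 0.40 in AKR/N and 0.82 in C57BL/6 for Cox4i2 to Cox4i1, 0.34 and 0.39 for Cox6a2 to Cox6a1, 0.44 and 0.08 for Cox7a1 to Cox7a2, and -0.48 and -0.86 for Cox8b to Cox8a. As these isoforms were dim, with Cox4i2 and Cox8b near the pseudocount of 16, their ratios partly carry the changes of Cox4i1 and Cox8a. They are no contrast to the testis isoforms.

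Germ cell paralogues outside the rule gave further ratios of the same form. Cyct is the testis form of cytochrome c, which carries electrons from complex III to complex IV, and Cycs is the common form. Cycs rose in both strains, at 0.80 in AKR/N and 0.83 in C57BL/6, while Cyct changed by -0.38 in AKR/N, not called, and by -1.60 in C57BL/6. The Cyct to Cycs ratio changed by -1.18 in AKR/N and -2.43 in C57BL/6. The ratio of Slc25a31 to Slc25a4, the germ cell and the heart and muscle exchangers of ADP and ATP, changed by -0.93 in AKR/N and -1.62 in C57BL/6. Its numerator was not called in either strain, and Slc25a4 rose by 1.24 in AKR/N and 1.40 in C57BL/6. Without probe sets whose suffix marks shared probes, that ratio changed by 0.01 in AKR/N and -0.55 in C57BL/6. Pdha2, the intronless germ cell copy of the pyruvate dehydrogenase subunit, against the X-linked Pdha1 gave -0.44 in AKR/N and -1.02 in C57BL/6.

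**Figure D3:**
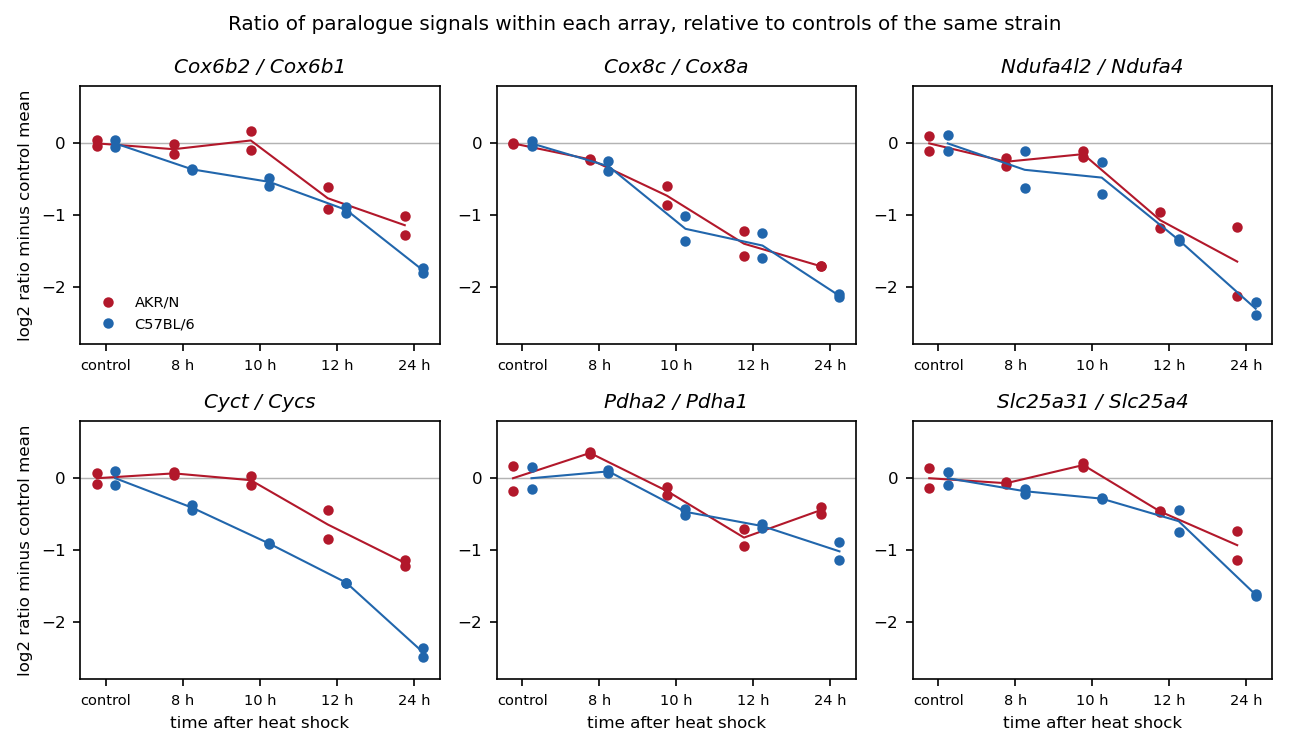
Log2 ratio of 2 paralogue signals within each array, minus the mean ratio of the controls of the same strain (points, AKR/N red and C57BL/6 blue; lines join group means), in controls and at 8, 10, 12 and 24 h after heat. In each panel the germ cell or hypoxia paralogue is over the common one, except that Slc25a31 is over Slc25a4, the heart and muscle form. The 3 complex IV ratios reach -1.14 to -1.71 in AKR/N and -1.77 to -2.30 in C57BL/6 at 24 h.

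Promoter windows, from 250 bases before to 50 bases after the start of each gene in RefSeq's GRCm38.p6 annotation, were at hand for 74 of the 90 members. They are shown for Cox6b2 and Cox6b1, a pair that moved apart after heat, for Cox7b2, which fell, and for Cox8a, which rose. Cox8c, the testis counterpart of Cox8a, had no window, and Cox7b was not analysed. Cox6b2 lies at chr7:4753045-4753344, minus strand, Cox6b1 at chr7:30626065-30626364, minus strand, Cox7b2 at chr5:71548156-71548455, minus strand and Cox8a at chr19:7217567-7217866, minus strand. Capitals mark motif matches on either strand.
Cox6b2: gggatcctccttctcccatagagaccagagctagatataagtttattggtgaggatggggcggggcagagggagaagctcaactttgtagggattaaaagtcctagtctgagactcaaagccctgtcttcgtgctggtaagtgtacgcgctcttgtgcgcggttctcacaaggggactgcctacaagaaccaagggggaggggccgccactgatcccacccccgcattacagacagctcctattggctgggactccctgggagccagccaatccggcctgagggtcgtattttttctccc
Cox6b1: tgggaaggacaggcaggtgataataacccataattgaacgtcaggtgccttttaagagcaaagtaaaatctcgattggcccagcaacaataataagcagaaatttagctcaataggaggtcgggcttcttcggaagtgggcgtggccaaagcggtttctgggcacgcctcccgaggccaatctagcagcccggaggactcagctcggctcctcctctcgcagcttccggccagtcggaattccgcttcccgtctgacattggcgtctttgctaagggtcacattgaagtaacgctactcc
Cox7b2: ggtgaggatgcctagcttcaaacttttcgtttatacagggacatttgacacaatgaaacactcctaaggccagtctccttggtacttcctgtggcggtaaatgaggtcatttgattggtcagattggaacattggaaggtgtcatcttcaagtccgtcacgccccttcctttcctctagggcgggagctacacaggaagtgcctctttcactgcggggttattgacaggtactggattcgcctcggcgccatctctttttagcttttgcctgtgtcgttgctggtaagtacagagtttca
Cox8a: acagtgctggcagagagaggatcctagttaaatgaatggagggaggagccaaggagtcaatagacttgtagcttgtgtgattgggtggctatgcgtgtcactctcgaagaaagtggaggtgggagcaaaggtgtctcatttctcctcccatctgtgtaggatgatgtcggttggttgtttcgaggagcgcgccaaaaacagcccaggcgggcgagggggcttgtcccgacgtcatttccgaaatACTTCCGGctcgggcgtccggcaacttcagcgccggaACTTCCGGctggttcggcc

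The windows were searched on both strands for GCGC, any base and TGCGC in a row, bound by NRF1, CCGGAAGT, bound by GABPA, and AANATGGCG, bound by YY1, which are factors known for respiratory genes, and for TGACGTCA, the cyclic AMP response element, and AACNGTT, bound by the spermatocyte factor A-MYB. Cox8a holds the GABPA letters at 2 places, and the windows of Cox6b2, Cox6b1 and Cox7b2 hold none of the 5 motifs. The windows of Cox6b2 and Cox7b2 held 10 CpG each, those of Cox8a 19 and of Cox6b1 17, beside a median of 20 over the 79 member windows and of 7 over all 32851 windows. The NRF1 letters stood in 18 of 79 member windows (22.8%), against 4.6% of all windows, the YY1 letters in 10 (12.7%, against 2.38%), the GABPA letters in 5 (6.33%, against 3.89%), the cyclic AMP element in 3 (3.8%, against 1.79%) and the A-MYB letters in 2 (2.53%, against 4.45%). All but the A-MYB letters contain CG, and member windows were richer in CpG than all windows. Whether the shares differ from those of windows with as many CpG was not tested. Of the 17 genes with a window that fell in both strains at 24 h, 1 held the NRF1 letters, as did 5 of the 19 that fell in 1 strain, 1 of the 4 that rose in both, 2 of the 5 that rose in 1 strain and 7 of the 28 called in neither. Sdhd, which fell in C57BL/6, and Atp5g2, which rose in both strains, both hold them. Sdhd lies at chr9:50603800-50604099, minus strand and Atp5g2 at chr15:102670998-102671297, minus strand. In the Sdhd window the second run of capitals is the A-MYB match.
Sdhd: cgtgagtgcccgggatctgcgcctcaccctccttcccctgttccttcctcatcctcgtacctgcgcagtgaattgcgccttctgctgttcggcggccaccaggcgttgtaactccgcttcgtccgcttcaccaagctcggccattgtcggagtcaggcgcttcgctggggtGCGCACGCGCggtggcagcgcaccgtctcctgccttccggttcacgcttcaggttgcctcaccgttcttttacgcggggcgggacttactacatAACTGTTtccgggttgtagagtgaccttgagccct
Atp5g2: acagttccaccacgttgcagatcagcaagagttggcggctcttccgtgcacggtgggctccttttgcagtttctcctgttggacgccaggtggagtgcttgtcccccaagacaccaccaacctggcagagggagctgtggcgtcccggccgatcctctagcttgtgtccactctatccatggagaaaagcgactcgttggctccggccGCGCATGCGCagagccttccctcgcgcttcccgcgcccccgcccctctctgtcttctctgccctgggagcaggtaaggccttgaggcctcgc

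Complex I, the NADH dehydrogenase, is the largest class. At 24 h, 8 of its 33 tested genes (24.2%, against 11.1% of all genes) fell and 1 (3.03%, against 12.3%) rose in AKR/N. In C57BL/6, 19 (57.6%, against 16.6%) fell and 3 (9.09%, against 21.4%) rose. The median log2 changes were -0.23 in AKR/N and -0.39 in C57BL/6. Ndufb2, an accessory subunit of the membrane arm, read 648 and 581 in AKR/N at 24 h, against 985 and 999 in AKR/N controls, and 615 and 568 in C57BL/6 at 24 h, against 1098 and 989.9 in C57BL/6 controls. Its heated arrays were lower in both strains, with log2 changes of -0.68 (SE 0.12, adjusted p = 0.00235) in AKR/N and -0.80 (SE 0.12, adjusted p = 0.000234) in C57BL/6, and a second bright probe set changed by -0.75 in AKR/N and -0.94 in C57BL/6. A dim one, left alone when probe sets with a suffix were left out, changed by 0.32 in AKR/N and 0.11 in C57BL/6. Ndufa3, another accessory subunit, changed by -0.47 in AKR/N and -0.77 in C57BL/6, and Ndufs4, a subunit whose loss in mice gives an encephalopathy like Leigh syndrome, by -0.23 in AKR/N, not called, and -0.75 in C57BL/6. Averaging all probe sets gave -0.36 for Ndufs4 in C57BL/6 (adjusted p = 0.0255) and -0.37 for Ndufb2 in AKR/N (adjusted p = 0.12). Ndufb10 fell in both strains at 10, 12 and 24 h, at -0.46, -0.47 and -0.46 in AKR/N and -0.57, -0.52 and -0.67 in C57BL/6. The AKR/N calls of Ndufb10 were each lost without single arrays, AKR/N 24 h replicate 2 at 24 h (adjusted p = 0.0835), AKR/N 12 h replicate 1 or either AKR/N control at 12 h (highest 0.151) and any of 16 arrays at 10 h (highest 0.213). The C57BL/6 call at 10 h was lost without control replicate 1 (0.0628).

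The complex I gene that rose in both strains was Ndufb11, a membrane arm subunit encoded on the X chromosome. It read 815 and 922 in AKR/N at 24 h, against 579 and 583 in AKR/N controls, and 861 and 789.5 in C57BL/6 at 24 h, against 462 and 470.01 in C57BL/6 controls. Heated arrays were higher in both strains, with log2 changes of 0.56 (SE 0.11, adjusted p = 0.00347) in AKR/N and 0.80 (SE 0.11, adjusted p = 0.000105) in C57BL/6, and its 2 other probe sets changed by 0.33 and 0.65 in AKR/N and by 0.52 and 0.75 in C57BL/6. In C57BL/6 it was called from 10 h on, at 0.44, 0.69 and 0.80. The AKR/N call at 24 h was lost without 24 h replicate 2 (adjusted p = 0.0534), and the C57BL/6 call at 10 h without any 1 of the 4 arrays compared (highest 0.118). Ndufa1, the other X-linked member, changed by 0.29 in AKR/N, not called, and 0.37 (SE 0.11, adjusted p = 0.0209) in C57BL/6, a call lost without C57BL/6 24 h replicate 1 (0.148) or control replicate 2 (0.152). Ndufa13, an accessory subunit also studied as GRIM-19, changed by -0.02 in AKR/N and 0.46 (SE 0.13, adjusted p = 0.0127) in C57BL/6, a call lost without either 24 h array (0.0637 and 0.0522) or control replicate 1 (0.129). Centring each array on its median ended the C57BL/6 calls of Ndufa1 (adjusted p = 0.233) and Ndufa13 (0.13).

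Complex II, succinate dehydrogenase, was called in C57BL/6 through its membrane anchors. Sdhc read 379.8 and 381 in AKR/N at 24 h, against 348 and 392 in AKR/N controls, and 298 and 326 in C57BL/6 at 24 h, against 538 and 557 in C57BL/6 controls. The AKR/N arrays overlapped, while the heated C57BL/6 arrays lay below the controls. Sdhc changed by 0.04 (SE 0.14, adjusted p = 0.864) in AKR/N and -0.78 (SE 0.14, adjusted p = 0.000584) in C57BL/6 at 24 h. In C57BL/6 it changed by -0.50 at 10 h and -0.89 at 12 h. Group means of Sdhc at 8, 10, 12 and 24 h were 553, 412, 349 and 380 in AKR/N, against 369 in AKR/N controls. In C57BL/6 they were 518, 382, 289 and 311, against 547 in the controls. Among the heated groups Sdhc was thus highest at 8 h and lowest at 12 h in both strains, while its controls were lower in AKR/N. A second Sdhc probe set changed by -0.17 in AKR/N and -0.10 in C57BL/6 at 24 h, and the mean of both gave -0.44 in C57BL/6 (adjusted p = 0.0421). Sdhd, which anchors the complex beside Sdhc, read 386 and 373 in AKR/N at 24 h, against 349.9 and 363 in AKR/N controls, and 307 and 319 in C57BL/6 at 24 h, against 431 and 489.8 in C57BL/6 controls, with changes of 0.09 (SE 0.14, adjusted p = 0.711) in AKR/N and -0.53 (SE 0.14, adjusted p = 0.0102) in C57BL/6. The Sdhd call was lost without C57BL/6 24 h replicate 1 (adjusted p = 0.0617) or control replicate 2 (0.0892). Group means of Sdhd at 8, 10, 12 and 24 h were 501, 406, 364 and 379 in AKR/N, against 356 in AKR/N controls. In C57BL/6 they were 476, 298, 245 and 313, against 459 in the controls. Sdha and Sdhb, the catalytic subunits, were not called, at -0.14 and -0.09 in AKR/N and -0.20 and -0.10 in C57BL/6. The 10 h calls of Sdhc and Sdhd in C57BL/6 were lost without any 1 of the 4 arrays compared, with highest adjusted p-values of 0.161 and 0.141.

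All 8 complex III genes had changes below 0 at 24 h in both strains, with 3 called down in AKR/N (37.5%, against 11.1% of all genes), 6 in C57BL/6 (75%, against 16.6%) and none called up. Uqcrc1, a core subunit, read 1102 and 1175 in AKR/N at 24 h, against 1947 and 1593 in AKR/N controls, and 1190.5 and 1419 in C57BL/6 at 24 h, against 1744 and 1788 in C57BL/6 controls. Heated arrays were lower in both strains, with changes of -0.62 (SE 0.15, adjusted p = 0.0107) in AKR/N and -0.44 (SE 0.15, adjusted p = 0.0353) in C57BL/6, although the AKR/N call was lost without either 24 h array (0.0564 and 0.0561) or control replicate 1 (0.0938). Uqcrfs1, the Rieske iron-sulfur protein, had 1200.3 and 1100.3 in AKR/N at 24 h, against 1339 and 1511 in AKR/N controls, and 1039 and 1161 in C57BL/6 at 24 h, against 1712 and 1779 in C57BL/6 controls. It changed by -0.30 (SE 0.12, adjusted p = 0.0927) in AKR/N and -0.66 (SE 0.12, adjusted p = 0.000929) in C57BL/6. Uqcrq, a small subunit of the same complex, fell, at -0.43 in C57BL/6, while 3 dim probe sets of it changed by -0.35 to 0.50 there, and the mean of all its probe sets was 0.01.

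Complex V, the ATP synthase, had 2 of its 17 genes fall (11.8%, against 11.1% of all genes) and 1 rise (5.88%, against 12.3%) in AKR/N at 24 h, which is near the share of all genes for the falls. In C57BL/6, 5 fell (29.4%, against 16.6%) and 2 rose (11.8%, against 21.4%), with median log2 changes of -0.13 in AKR/N and 0.06 in C57BL/6. Atp5a1 and Atp5b, the subunits of the catalytic head, were not called at any time, with 24 h changes of 0.06 and -0.13 in AKR/N and 0.28 and 0.07 in C57BL/6. Atp5j, coupling factor 6 of the stalk, read 1919 and 1929 in AKR/N at 24 h, against 2646 and 2702 in AKR/N controls, and 1711 and 1649.96 in C57BL/6 at 24 h, against 2788 and 2498 in C57BL/6 controls. It was lower in heated testes of both strains, with changes of -0.47 (SE 0.11, adjusted p = 0.00845) in AKR/N and -0.65 (SE 0.11, adjusted p = 0.000451) in C57BL/6, and the AKR/N call was lost without 24 h replicate 2 (0.0604). Atp5g2, 1 of the genes for the c subunit of the proton-conducting ring, read 612 and 611 in AKR/N at 24 h, against 461 and 446 in AKR/N controls, and 621 and 613 in C57BL/6 at 24 h, against 459.8 and 455 in C57BL/6 controls. It rose by 0.42 (SE 0.13, adjusted p = 0.0323) in AKR/N and 0.42 (SE 0.13, adjusted p = 0.0199) in C57BL/6, each call being lost without any 1 of the 4 arrays compared (highest adjusted p = 0.137 in AKR/N and 0.0878 in C57BL/6). Averaging all Atp5g2 probe sets gave 0.26 (0.134) in AKR/N and 0.09 (0.599) in C57BL/6. Of its paralogues, Atp5g1 changed by 0.21 in AKR/N and 0.06 in C57BL/6, and Atp5g3 by 0.16 in AKR/N and 0.34 (SE 0.11, adjusted p = 0.0331) in C57BL/6, a call also lost without any 1 of the 4 arrays (highest 0.167) or with each array centred on its median (0.318).

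Among the 9 assembly and accessory factors, 3 fell (33.3%, against 11.1% of all genes) and 2 rose (22.2%, against 12.3%) in AKR/N at 24 h. In C57BL/6, 4 fell (44.4%, against 16.6%) and 1 rose (11.1%, against 21.4%). Ndufaf3, which helps to assemble the peripheral arm of complex I, read 1894 and 1659.7 in AKR/N at 24 h, against 3098 and 2809 in AKR/N controls, and 1122 and 1143 in C57BL/6 at 24 h, against 2765 and 2904 in C57BL/6 controls. Its heated arrays were below the controls in both strains, with changes of -0.73 (SE 0.12, adjusted p = 0.00142) in AKR/N and -1.31 (SE 0.12, adjusted p = 6.77e-06) in C57BL/6. Ndufaf8, another complex I assembly factor, fell, at -0.59 in AKR/N and -0.74 in C57BL/6, the AKR/N call being lost without 24 h replicate 2 (adjusted p = 0.0539) or control replicate 2 (0.0568). Ndufaf4, a partner of Ndufaf3, read 123 and 156 in AKR/N at 24 h, against 64.3 and 63.2 in AKR/N controls, and 149.8 and 142 in C57BL/6 at 24 h, against 103 and 95.1 in C57BL/6 controls. It rose in AKR/N by 0.95 (SE 0.23, adjusted p = 0.0113), and its C57BL/6 change of 0.50 (SE 0.23, adjusted p = 0.115) did not pass. A second, dimmer Ndufaf4 probe set with a mean signal of 43 changed by 0.71 in AKR/N and 1.20 in C57BL/6, the other order of the strains. Ndufaf6, which takes part in making the subunit ND1, was dim, at 33.9 and 34.1 in AKR/N at 24 h, against 6.24 and 15.9 in the AKR/N controls, and 44.9 and 33.8 in C57BL/6 at 24 h, against 3.13 and 24.5 in the C57BL/6 controls. It was called up in both strains, at 0.91 in AKR/N and 0.99 in C57BL/6, but these sizes depend on the pseudocount and ran from 0.39 to 1.66 in AKR/N and from 0.42 to 1.96 in C57BL/6 with pseudocounts of 64 and 1, and the AKR/N call was lost with a pseudocount of 1 (adjusted p = 0.0876). The control means of Ndufaf6, 10.7 in AKR/N and 11.8 in C57BL/6, lay below the filter of 17.5. It was thus tested only because of its heated groups, so its calls up are tied to the filter. The counts of risen genes above include it. The Ndufaf4 call was lost without AKR/N 24 h replicate 2 (0.113) or either control (0.0515 and 0.0529), and the Ndufaf6 calls without AKR/N control replicate 1 (0.212), either AKR/N 24 h array (0.0939 and 0.134), C57BL/6 control replicate 1 (0.181) or C57BL/6 24 h replicate 1 (0.0929).

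Before heat the strains differed in few of these genes. In AKR/N controls 0 members were higher and 5 were lower than in C57BL/6 controls (3.1% of all genes were higher and 3.19% lower). Ndufb1, an accessory subunit of complex I, read 445 and 425 in AKR/N controls and 799 and 763 in C57BL/6 controls, a log2 difference of -0.82 (SE 0.14, adjusted p = 0.0023). The complex I assembly factors Ndufaf1, Ndufaf2 and Ndufaf7 differed by -0.81, -0.67 and -0.57, and Sdhc by -0.55. Apart from Ndufb1, each of these calls was lost without AKR/N control replicate 1 or C57BL/6 control replicate 1 (highest adjusted p = 0.234). Whether the probes match both strains' sequences equally was not tested.

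Most members changed the same way in both strains at 24 h. Of the 89 members, 21 were called down in both strains, 5 up in both and 0 in opposite directions, 23 were called down in 1 strain alone (22 of them in C57BL/6), 5 up in 1 strain alone (4 of them in C57BL/6) and 35 in neither. The 5 called up in both include Ndufaf6, which passed the filter through its heated groups alone. The changes had the same sign in 72 members, and across members they correlated with r = 0.82 and rho = 0.74, as a description over 89 genes of the same 8 arrays. Of all genes, 11.1% fell and 12.3% rose in AKR/N at 24 h, and 16.6% fell and 21.4% rose in C57BL/6. The overlap and correlation over all genes are not given here. Whether the members agreed more between strains than other genes was therefore not tested. A call in 1 strain alone does not show a difference. For the strain difference of the 24 h change, AKR/N minus C57BL/6, limma called 1 member up and 0 down (0.939% of all genes were up and 0.818% down), with 16 members at an unadjusted p under 0.05. The member was Cox7b2, whose fall was smaller in AKR/N by 0.81 (SE 0.18, adjusted p = 0.0418). That call was lost in 14 of the 20 fits that left out 1 array, among them each of the 8 arrays at 24 h and in the controls (highest adjusted p = 0.151). It was also lost with a pseudocount of 1 (0.0506), with median centring (0.0871), without the filter (0.0531), without suffixed probe sets (0.0521) and with the replicate block (0.0585). Sdhc had an estimate of 0.82 (SE 0.19, adjusted p = 0.0504) and Cox8c of 0.59 (SE 0.18, adjusted p = 0.0958). The Sdhc estimate uses the same control arrays as its difference of -0.55 between the controls of the strains. At 8, 10 and 12 h limma called 0 members (0% to 0.019% of all genes in either direction), with 1, 11 and 10 at an unadjusted p under 0.05. A moderated F test of the strain difference at any time called 0 of 89 members (0.0825% of all genes), with 9 at an unadjusted p under 0.05.

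**Figure D4:**
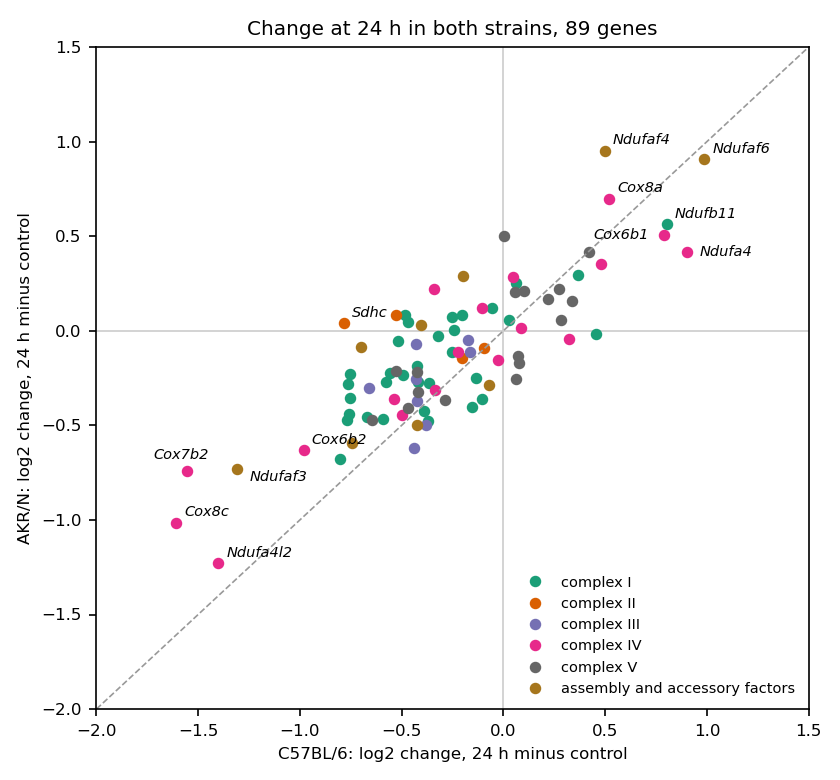
Log2 change at 24 h, heated minus control of the same strain, of the 89 tested genes in AKR/N (vertical axis) and C57BL/6 (horizontal axis), coloured by class. The dashed line marks equal change. Most points lie in the lower left part, and Cox8c, Cox7b2 and Ndufaf3 lie above the line, with lower values in C57BL/6, a difference that passed the test for Cox7b2 and not for the other 2.

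Related mitochondrial genes outside the rule were called in both directions. The shares of all genes at 24 h, for reading these counts, were 11.1% fallen and 12.3% risen in AKR/N and 16.6% fallen and 21.4% risen in C57BL/6, and with lists of 16 to 37 genes the counts in AKR/N for assembly factors and biogenesis regulators lay near them. Of 40 further assembly factors, 37 were tested, of which 3 fell and 5 rose in AKR/N at 24 h and 9 fell and 5 rose in C57BL/6. Cox16, a complex IV assembly factor, changed by -0.38 in AKR/N, not called, and -1.48 in C57BL/6, and Sdhaf4, which assembles complex II, by -0.33, not called, and -1.26. Of 20 electron carriers and exchangers, 1 fell and 4 rose in AKR/N, and 3 fell and 7 rose in C57BL/6. The outer membrane channel Vdac1 rose by 0.88 in AKR/N and 1.68 in C57BL/6, and Slc25a5, the exchanger of ADP and ATP in dividing cells, by 0.96 and 1.24. Of 18 tested genes of pyruvate dehydrogenase and the citric acid cycle, 1 fell and 6 rose in AKR/N, and 5 fell and 6 rose in C57BL/6. Mdh2, the malate dehydrogenase of the mitochondrion, rose by 1.01 in AKR/N and 1.22 in C57BL/6, and Dlst, of the oxoglutarate dehydrogenase complex, fell, at -0.82 and -0.75. Averaged over all probe sets of the gene, Dlst was at -0.36 (adjusted p = 0.0463) in AKR/N and -0.16 (adjusted p = 0.342) in C57BL/6, and Cox16 was at -0.41 (adjusted p = 0.0259) in C57BL/6.

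Of 16 regulators of mitochondrial biogenesis, 2 fell and 3 rose in AKR/N, and 4 fell and 5 rose in C57BL/6. Tfam, which packages mitochondrial DNA and starts its transcription, rose by 0.49 in AKR/N and 0.73 in C57BL/6, and Polg, the mitochondrial DNA polymerase, fell, at -0.82 and -0.53. The AKR/N calls of Tfam and Polg were lost without 24 h replicate 2 (adjusted p = 0.0849 and 0.0767), and the C57BL/6 call of Polg without control replicate 2 (0.239). Nrf1, whose motif was searched above, was not called, at 0.28 in AKR/N and 0.00 in C57BL/6. Of the 13 subunits encoded in mitochondrial DNA, ND5 was the 1 with a single-gene probe set, and it changed by 0.33 in AKR/N and 0.22 in C57BL/6, not called in either.

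Markers of testis cell types were called in both directions at 24 h. Of all genes, 11.1% fell and 12.3% rose in AKR/N, and 16.6% fell and 21.4% rose in C57BL/6. In marker lists this short, 1 called gene lies near those shares. Of 7 genes of pachytene spermatocytes, 3 fell and 0 rose in AKR/N, and 3 fell and 1 rose in C57BL/6, with Ccna1, a cyclin of meiosis, at -1.54 in AKR/N and -1.82 in C57BL/6 and Hspa2, a spermatocyte heat shock protein, at -0.84 and -1.11. The riser of that list was Pgk2, a glycolytic enzyme of germ cells, at 0.30 in AKR/N, not called, and 0.48 in C57BL/6, a call lost with median centring (adjusted p = 0.0887). The summed signal of the pachytene list was 13997 to 14139 in AKR/N at 24 h, against 14672 to 15560.5 in AKR/N controls, and 13829 to 14294 in C57BL/6 at 24 h, against 15019 to 15189 in C57BL/6 controls. Such a sum weighs genes by their brightness. Pgk2, its brightest gene, read 5794 and 6123 in C57BL/6 at 24 h, against 4237 and 4298 in C57BL/6 controls, while Ccna1 and Hspa2 fell. Of 6 tested Sertoli cell genes, 4 rose in AKR/N and 5 in C57BL/6, with 0 falling. These summed to 11084 to 11581 in AKR/N at 24 h, against 7816 to 8014 in AKR/N controls, and to 12694 to 12773 in C57BL/6 at 24 h, against 7389 to 7434 in C57BL/6 controls. Most of each sum came from the bright genes Clu and Ctsl. Clu alone read 6401 and 6596 in AKR/N and 7365 and 7216 in C57BL/6 at 24 h. Rhox5, of the same list, read 267 and 284 in C57BL/6 at 24 h, against 409 and 323 in C57BL/6 controls. Without suffixed probe sets Ctsl changed by -0.15 in AKR/N, not called. Of 7 round spermatid genes 2 rose in AKR/N and 1 in C57BL/6, and of 6 elongating spermatid genes 1 rose in AKR/N and 2 in C57BL/6, with 0 falling. Of 6 macrophage genes 3 rose in AKR/N and 4 in C57BL/6, and of 5 tested Leydig cell genes 2 fell in AKR/N while 2 fell and 2 rose in C57BL/6. Amh and Trf, of the Sertoli cell list, and Insl3, of the Leydig cell list, were not tested. Of 7 spermatogonial genes 2 rose in AKR/N and 1 in C57BL/6, and of 4 myoid cell genes 2 rose in AKR/N and 1 in C57BL/6. In AKR/N, the call of Hspa2 was lost without 24 h replicate 2. That of Piwil1, another pachytene gene called down, was lost in 6 of the 20 fits that left out 1 array. Calls of rising markers were lost as well, among them the spermatogonial gene Zbtb16 and the Sertoli cell gene Gata4 in 3 fits each. The elongating spermatid gene Akap4 lost its call in 15 of the 20 fits that left out 1 array (highest 0.33, without control replicate 1), and the round spermatid genes Acrv1 and Catsper3 in 5 each (highest 0.371 and 0.254, without the same array). Without 24 h replicate 2 the calls of the macrophage genes Cd68, Lyz2 and Csf1r (0.104, 0.148 and 0.0584) and the myoid genes Acta2 and Tagln (0.239 and 0.0525) were lost. The part of these cell types in the changes of the subunit genes was not tested, and, in whole testes, fewer cells of a type and less RNA per cell cannot be told apart.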

How the data were processed

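Testis RNA on 20 arrays was analysed from the deposited table of linear probe-set intensity values, which the authors' software had scaled so that each array had a trimmed mean of 125.001 (2% trimmed at each end), as tested on the table. The scaling software is not given in the sources used here. Of 45101 probe sets, 64 were controls, 34945 carried 1 gene symbol in the platform annotation, 932 several and 9160 none. The probe set with the highest mean stood for a gene. Values were log2(signal + 16), and genes whose highest group mean reached the 40th percentile of probe-set means (a signal of 17.5) were tested. A dim gene such as Cox8b or Cox4i2 could thus pass through the groups where it was highest. Ndufaf6, below the filter in the controls of both strains, passed through its heated groups. In limma 3.58.1 (R 4.3.3), 1 mean per group was fitted over all arrays, with eBayes and Benjamini-Hochberg adjustment over 15762 genes. Only arrays within a strain were set against each other for heat, and strain by heat was a difference of those differences.

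Members, gene lists and comparisons were chosen with earlier results of these data known. A rule picked, per comparison, class and direction, up to 3 called members with the smallest adjusted p. It also took members with a testis or tissue paralogue among the members and up to 6 per direction called for a strain difference. From each further list it took up to 3 genes per direction. The text describes part of these genes, with their values known. Left out, for example, were Uqcr10, Uqcr11, Ndufb8 and Atp5j2, which fell in both strains at 24 h. The named values counted below include them. Genes outside that rule (such as Cox5b, Cox6c, Sdha, Sdhb, Atp5a1, Atp5b and Nrf1) were named for their role after their values were seen. Replicate numbers did not pair samples: over 45 pairs of groups, deviations of same-numbered arrays correlated between -0.28 and 0.30, with 4 pairs over 0.1. The script was tested on simulated data. The number of arrays limits the precision. Alternatives were other pseudocounts, centring, quantile normalization, filters, probe-set rules, a fit within 1 strain, a trended prior, a replicate block and leaving out each array. The paralogue ratios were added after seeing the data and are given as values only.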

Additional observations from a re-analysis of the deposited data

Results flagged for a closer look

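The fall of Cox7b2 at 24 h, the testis paralogue of complex IV subunit 7b, was smaller in AKR/N than in C57BL/6. The difference of the log2 changes was 0.81 (SE 0.18, 95% interval 0.42 to 1.20, limma adjusted p = 0.0418), AKR/N minus C57BL/6, and both heated arrays read higher in AKR/N than in C57BL/6. The call was lost in 14 of the 20 fits that left out 1 array, where the estimate ran from 0.74 to 0.88. It was also lost with a pseudocount of 1, with median centring, without the filter, without suffixed probe sets and with the replicate block, with adjusted p-values of 0.0506 to 0.0871.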

How the results depend on the processing

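With 2 arrays a group, calls moved with single arrays. Over the fits that left out 1 array each, members called in AKR/N numbered 0 at 8 h, 0 to 4 at 10 h, 2 to 7 at 12 h and 9 to 31 at 24 h, and in C57BL/6 0 at 8 h, 3 to 26 at 10 h, 10 to 27 at 12 h and 34 to 53 at 24 h. Against the earlier heated groups they numbered 1 to 14 in AKR/N, the lowest without AKR/N 24 h replicate 2, and 8 to 32 in C57BL/6, the lowest without C57BL/6 24 h replicate 1. For the strain difference at 24 h they numbered 0 to 2, and between controls 1 to 5. Of 203 named values called, 101 kept the call in all these fits. The replicate block left 2 members called in AKR/N at 10 h and 0 for the strain difference at 24 h, where Cox7b2 had an adjusted p of 0.0585, and moved no other count of members by over 1.5 times. As the numbers do not pair the samples, it is no test of effect size.

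Other settings moved these counts. AKR/N at 10 h (4 members) gave 19 with a pseudocount of 64, 1 with median centring, 2 without the filter, 10 with the filter at the 60th percentile, 0 within the strain and 27 with a trended prior. AKR/N at 12 h (6) gave 13, 3, 10, 2 and 13 with a pseudocount of 64, median centring, the stricter filter, the fit within the strain and the trended prior. C57BL/6 at 10 h (24) gave 8 with median centring, 10 within the strain and 38 with a trended prior, which gave 40 at 12 h (24). Against the earlier heated groups, AKR/N (14) gave 9 within the strain, and C57BL/6 (32) gave 20 without suffixed probe sets and 20 within the strain. The strain difference at 24 h (1) gave 0 with a pseudocount of 1, with median centring, without the filter and without suffixed probe sets, 2 with quantile normalization or the stricter filter, 4 with a pseudocount of 64 and 6 with a trended prior. The control comparison (5) gave 8 with a trended prior, and the difference at any time (0) gave 1 with it or with a pseudocount of 64.

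Median centring moved the median of all genes in C57BL/6 at 24 h to -0.05, against 0.08, and at 12 h to -0.07, against 0.06. In C57BL/6 at 24 h it gave 4 members up and 44 down, with 2311 of all genes up and 2989 down, against 3366 up and 2623 down, and at 12 h 724 of all genes up and 1677 down, against 1531 up and 1479 down. Of the named values, 10 changed sign. Averaging probe sets gave 0.0062 for Uqcrq in C57BL/6 and -0.11 for Acta2 in AKR/N at 24 h. Leaving out suffixed probe sets gave 0.32 for Ndufb2 in AKR/N and 0.11 in C57BL/6, 0.14 for Cox5b in AKR/N and 0.10 in C57BL/6, and in AKR/N -0.15 for Ctsl, -0.45 for Acta2, -0.20 for Tnnt2 and 0.0101 for the ratio of Slc25a31 to Slc25a4. Each of these takes another probe set or adds dimmer ones, and the cause was not tested.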

Other observations

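Both subunit genes on the X chromosome, Ndufb11 and Ndufa1, rose in C57BL/6, and the chromosome as a whole had many genes up. Of 514 tested genes on the X chromosome, of 15650 matched to RefSeq by gene ID, 200 rose (38.9%) and 1 fell in AKR/N at 24 h, with a median log2 change of 0.43. In C57BL/6, 262 rose (51%) and 4 fell, with a median of 0.55. Over all genes, 12.3% rose in AKR/N and 21.4% in C57BL/6. At 10 h, 5 rose and 5 fell in AKR/N, while 57 rose (11.1%) in C57BL/6, and at 12 h 39 rose (7.59%) in AKR/N and 101 (19.6%) in C57BL/6. Ndufb11 and Ndufa1 are among these genes.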
